A study of Mus musculus with 8 samples.

Results

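Cholesterol synthesis and uptake were examined through 28 genes, named one by one, that run from acetoacetyl-CoA thiolase to the carriers that move sterol out of lysosomes. They were taken in the order of the pathway, and all of them were found among the 20659 named genes on the array. All 28 were also among the 14487 genes bright enough to be tested. The samples were cultured mouse cells of the kidney proximal tubule, the epithelium that takes back most of the filtrate, prepared as primary cultures from the cortex of male C57/BJ mice aged 6 weeks and grown to confluence. Cells in serum-free medium received either the solvent DMSO (4 samples) or 1 uM GW4064 (4 samples) over 24 h. GW4064 is a man-made activator of FXR, a nuclear receptor that senses bile acids. Nothing in the labels ties the 4 samples of each group to different animals or dishes. The p-values below therefore set each difference only against the spread among these samples, which may be technical spread.

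Cells make cholesterol from acetyl-CoA. The first steps build mevalonate and turn it into isoprenoids, the middle steps join these into squalene and close the rings of lanosterol, and the last steps trim lanosterol to cholesterol. When sterol in the endoplasmic reticulum runs low, SCAP carries the transcription factor SREBP2 to the Golgi, where it is cut and freed, and most genes of the pathway are its known targets. INSIG proteins hold SCAP back when sterol is plentiful. Cells also take up sterol with lipoproteins, and in serum-free medium that supply is small.

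In cells given the agonist, a few separate points of the pathway were higher, 1 gene that limits lipoprotein receptors was lower, and most of the genes did not pass the test. Acat2, Mvk and Mvd of the mevalonate steps, Ebp and Dhcr7 of the last steps, and the lysosomal carrier Npc2 were higher with GW4064, and Mylip was lower. That is 7 of 28 genes (25%) past an adjusted p of 0.05 in limma, of which 6 were higher (21.4%) and 1 lower (3.57%). Among all 14487 genes tested, 20.8% passed that threshold, 11.8% higher and 8.95% lower, so the share of cholesterol genes called was near the background. The median log2 fold change of the 28 genes was 0.08, against 0.01 over all genes. The change was positive for 21 of them and negative for 7, against 7847 positive and 6640 negative among all 14487 genes. The 4 GW4064 samples lay wholly above the 4 DMSO samples for 8 genes, 28.6% of the list against 15% of all genes, and wholly below for 1, which is 3.57% against 11.2%. These shares describe the list and were given no test of their own.

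**Figure D1:**
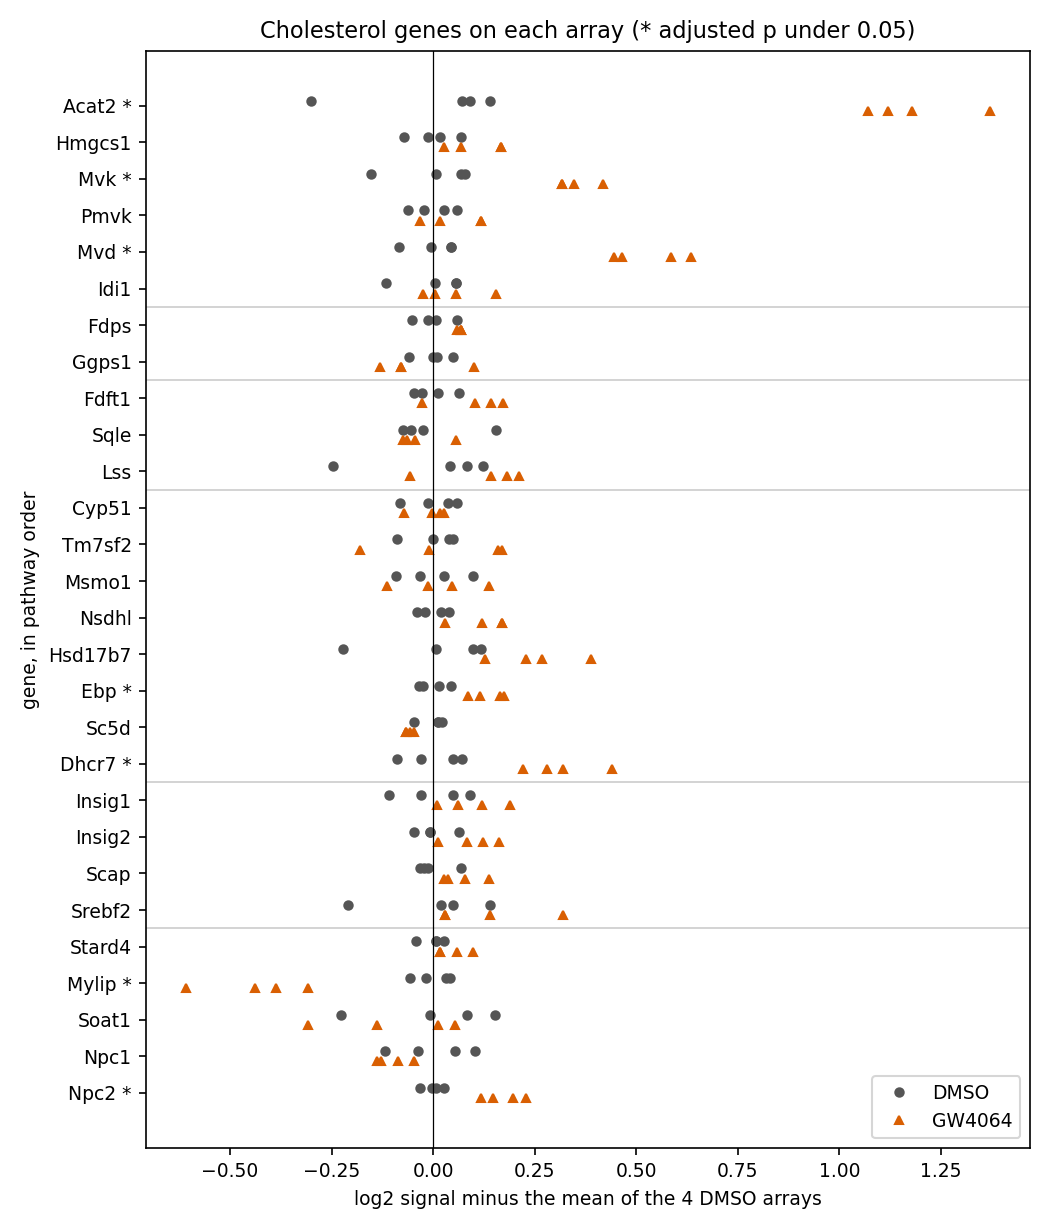
Values of the 28 genes on the 8 arrays, as log2 signal minus the mean of the 4 DMSO arrays, in pathway order from top to bottom with grey lines between roles; circles are DMSO samples, triangles GW4064 samples, and an asterisk marks an adjusted p under 0.05. Acat2 stands farthest to the right and Mylip farthest to the left, and for most genes between them the circles and triangles overlap.

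Every level below is the log2 of the processed spot signal minus the 75th percentile of the same array, so that 0 is the brightness of the probe at that percentile. A brighter probe need not mean a more abundant transcript, so levels are compared between samples for the same probe. Differences are GW4064 minus DMSO on the same log2 scale, with the standard error of the limma fit and n = 4 arrays per group. That percentile was a signal of 1626 ± 187 in DMSO arrays and 1412 ± 207 in GW4064 arrays (SD, n = 4 each). On each array 61.4% to 65.7% of probes exceeded background by the scanner software's criterion, called well above background here. As a check of the treatment, the bile acid transporter subunits Slc51a and Slc51b, textbook FXR targets, rose by 6.91 ± 0.16 and 3.40 ± 0.07, with adjusted p of 1.4e-07 for both in limma. Nr1h4, which encodes FXR, fell by 0.45 ± 0.05. The bile acid binding protein Fabp6, another FXR target, exceeded background on 4 of 4 GW4064 arrays and 0 of 4 DMSO arrays, and Nr0b2 was too dim to test. The arrays lay on 2 slides of 4, and within a slide the DMSO arrays came before the GW4064 arrays, so treatment and place on the slide cannot be told apart.

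Markers of the labelled cell type moved with the treatment. Of 16 proximal tubule markers, 12 rose and 0 fell (limma, adjusted p under 0.05). Among all genes tested, 11.8% were higher and 8.95% lower, and every marker count here stands beside these shares. The summed level of the proximal tubule markers, as log2 of the summed signal, ranged from 6.83 to 7.09 with DMSO and from 7.5 to 7.7 with GW4064. The one with the brightest probe, the scaffold gene Pdzk1, differed by 0.23 ± 0.08 with an adjusted p of 0.075. Of 10 leukocyte markers 4 rose and 0 fell, with summed levels of 3.56 to 3.73 against 3.95 to 4.14, and Csf1r, with the brightest probe, rose by 0.75 ± 0.05. Of 9 fibroblast markers 3 rose and 0 fell, with summed levels of 5.85 to 6.2 against 6.3 to 6.58. Tagln, with the brightest probe of these, rose by 0.53 ± 0.10, and Lum was well above background on no array. Of 8 endothelial markers 3 rose and 0 fell, with sums of 2.42 to 2.65 against 2.62 to 2.79, with the brightest probe for Egfl7 and with Tek well above background on no array. Of 10 markers of other nephron segments 1 rose and 2 fell, with sums of 3.28 to 3.56 against 3.42 to 3.62, with Calb1 and Atp6v1b1 well above background on no array. The part of these shifts in the results on cholesterol genes was not tested. In RNA from a whole culture, a change in the number of cells of a type and a change in RNA per cell cannot be told apart.

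The sequences in front of the genes that moved most are shown because they can be set beside the values: SREBP2 is known to act at a sterol regulatory element together with the factors NF-Y and SP1, and the windows differ in these motifs. Each run is the 300 bases from 250 before to 50 after an annotated start, taken from the RefSeq annotation of mouse assembly GRCm38.p6 and read 5′ to 3′ on the gene's strand. Capitals mark TCACNCCAC, the core letters of a sterol regulatory element, and CCAAT, the NF-Y box, on either strand, so that ATTGG is a CCAAT box on the other strand. The first 5 windows belong to the genes that passed with a change of over 0.3 on the log2 scale. The last, Hmgcs1, which did not pass, was chosen after its sequence and values were seen, because it alone held the sterol regulatory element core. The windows are chr17:12960676-12960975 on the minus strand for Acat2, chr5:114444019-114444318 on the plus strand for Mvk, chr8:122443373-122443672 on the minus strand for Mvd, chr7:143829964-143830263 on the plus strand for Dhcr7 (1 of its 3 annotated starts), chr13:45389492-45389791 on the plus strand for Mylip and chr13:119690101-119690400 on the plus strand for Hmgcs1.
Acat2: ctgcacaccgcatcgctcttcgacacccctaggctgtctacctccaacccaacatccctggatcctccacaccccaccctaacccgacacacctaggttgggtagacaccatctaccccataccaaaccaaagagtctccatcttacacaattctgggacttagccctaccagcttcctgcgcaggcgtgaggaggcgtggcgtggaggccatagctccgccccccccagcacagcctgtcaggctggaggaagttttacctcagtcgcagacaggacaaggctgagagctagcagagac
Mvk: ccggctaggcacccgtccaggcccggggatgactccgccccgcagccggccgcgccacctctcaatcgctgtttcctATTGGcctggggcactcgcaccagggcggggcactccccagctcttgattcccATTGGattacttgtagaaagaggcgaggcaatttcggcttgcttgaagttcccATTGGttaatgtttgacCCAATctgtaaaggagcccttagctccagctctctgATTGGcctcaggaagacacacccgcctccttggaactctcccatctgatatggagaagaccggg
Mvd: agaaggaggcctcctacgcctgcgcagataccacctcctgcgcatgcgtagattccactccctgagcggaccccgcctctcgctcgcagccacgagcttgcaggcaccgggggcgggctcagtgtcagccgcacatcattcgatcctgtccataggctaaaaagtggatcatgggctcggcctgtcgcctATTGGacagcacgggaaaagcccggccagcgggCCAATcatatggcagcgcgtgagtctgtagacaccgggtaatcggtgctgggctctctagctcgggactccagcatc
Dhcr7: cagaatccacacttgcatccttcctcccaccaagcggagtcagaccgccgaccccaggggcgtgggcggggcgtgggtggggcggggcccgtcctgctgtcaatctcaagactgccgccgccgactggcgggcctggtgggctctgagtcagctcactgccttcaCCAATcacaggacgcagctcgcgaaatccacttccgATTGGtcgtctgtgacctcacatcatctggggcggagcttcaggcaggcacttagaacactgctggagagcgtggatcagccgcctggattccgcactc
Mylip: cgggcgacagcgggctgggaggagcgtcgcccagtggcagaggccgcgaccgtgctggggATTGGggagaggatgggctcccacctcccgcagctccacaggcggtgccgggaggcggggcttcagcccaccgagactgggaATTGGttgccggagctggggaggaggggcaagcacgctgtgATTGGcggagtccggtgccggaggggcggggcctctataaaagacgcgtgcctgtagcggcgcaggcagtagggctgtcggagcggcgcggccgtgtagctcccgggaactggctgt
Hmgcs1: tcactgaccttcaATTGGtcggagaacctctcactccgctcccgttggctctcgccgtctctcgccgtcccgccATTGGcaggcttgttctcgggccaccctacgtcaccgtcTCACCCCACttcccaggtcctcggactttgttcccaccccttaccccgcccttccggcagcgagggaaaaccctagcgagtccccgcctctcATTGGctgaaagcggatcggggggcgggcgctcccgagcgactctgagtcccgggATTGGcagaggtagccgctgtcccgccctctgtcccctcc

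Windows were available for 23 of the 28 genes, and Fdps, Fdft1, Sqle, Stard4 and Npc1 were not listed. TCACNCCAC, searched on both strands, was found in 1 of 23 genes, Hmgcs1, where TCACCCCAC starts at position -137 from the annotated start. It was found in 1.44% of all genes with a window and in 1.44% of the 11521 tested genes with one. CCAAT was found in 21 of 23 genes (91.3%), against 41.1% of all genes and 42.5% of tested genes. The box was present in 6 of the 7 called genes, with 5 copies in the Mvk window, 3 in Mylip and 2 in Mvd, and absent from that of Acat2, the gene with the largest change. It was also present in 15 of the 16 genes that did not pass, so its presence did not separate the groups. A gene was counted if any of its windows held the box. For Dhcr7 only the printed window held it, with 2 copies, and the windows at its other starts held 0. Pmvk and Insig2, which did not pass, also held it in only some of their windows. The GC box GGGCGG, an SP1 motif, was found in 21 of 23 genes (91.3%), against 38.2% of all and 64.5% of tested genes, in 7 of 7 called genes and 14 of 16 others. The E-box CACGTG was found in 5 of 23 (21.7%), against 8.09% of all genes and 11.2% of tested genes. The nuclear receptor half-site AGGTCA was found in 3 of 23 (13%), against 18.1% of all and 15.9% of tested genes. No copy of TCACNCCAC overlapped CCAAT in the windows of these genes. A match describes the letters and does not show a bound site, and these shares were not tested.

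The mevalonate steps held the largest changes. All 6 genes differed in the positive direction, with a median of 0.23, and 3 of them passed. Over all 14487 genes tested, 7847 differed in the positive direction, 11.8% passed as higher and 8.95% as lower. Acat2 encodes the cytosolic thiolase that joins acetyl-CoA units at the entry to the pathway. It is not the cholesterol acyltransferase that shares its old name and is listed here as Soat2. The Acat2 level was -0.2, -0.13, -0.18 and -0.57 in DMSO replicates 1 to 4 and 0.91, 1.1, 0.8 and 0.85 in GW4064 replicates 1 to 4. Every GW4064 sample was more than 0.9 above the highest DMSO sample, and DMSO replicate 4 stood below the other DMSO samples. The difference was 1.18 ± 0.11, or 2.27-fold, with an adjusted p of 0.00016 in limma. It was 1.17 on slide 1 and 1.20 on slide 2, and without DMSO replicate 4 it was 1.09.

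Acat2 lies beside a near copy, Acat3, and their transcripts are similar enough that a probe may not separate them. The Acat3 probe read 1.36, 1.35, 1.4 and 1.4 with DMSO and 2.42, 2.41, 2.4 and 2.47 with GW4064. It rose by 1.05 ± 0.03 (2.07-fold), with an adjusted p of 7.8e-07 in limma and less spread than the Acat2 probe. How much each of the pair contributed to either signal was not tested, so the rise is best read as one of the pair. The other genes of that neighbourhood did not pass. Tcp1, a chaperonin subunit, differed by -0.11 ± 0.04, Wtap by -0.15 ± 0.05, Sod2 by 0.09 ± 0.04 and Mrpl18 by -0.01 ± 0.05. Acat1, the mitochondrial thiolase of ketone body metabolism, differed by 0.10 ± 0.05 (adjusted p = 0.20).

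**Figure D2:**
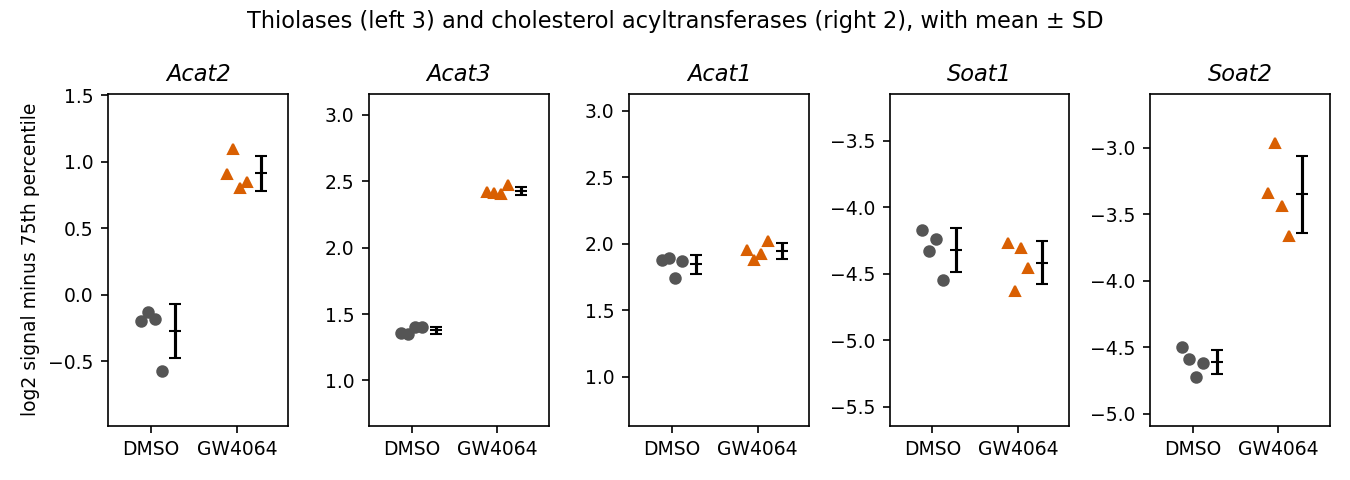
Level of 5 genes on each array, as log2 signal minus the 75th percentile of the array; points are samples, bars are mean ± SD (n = 4), and each panel spans the same height around its own middle. Acat2, Acat3 and Soat2 lie about 1 unit or more higher with GW4064, with no overlap between groups, whereas the samples of Acat1 and Soat1 overlap.

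Mvd, the decarboxylase that ends the mevalonate steps and yields isopentenyl diphosphate, read 1, 0.95, 1 and 0.87 with DMSO and 1.54, 1.59, 1.4 and 1.42 with GW4064. The groups were well apart, and the lowest GW4064 sample was 0.4 above the highest DMSO sample. Mvd rose by 0.53 ± 0.05 (1.45-fold, adjusted p = 0.00035 in limma), by 0.59 on slide 1 and 0.48 on slide 2. Mvk, mevalonate kinase, read 1.66, 1.82, 1.89 and 1.88 with DMSO and 2.16, 2.13, 2.23 and 2.13 with GW4064, again with no overlap. Mvk rose by 0.35 ± 0.06 (1.28-fold, adjusted p = 0.0039), by 0.41 on slide 1 and 0.30 on slide 2. A second, dimmer Mvk probe read -0.17, -0.08, -0.05 and -0.16 with DMSO and 0.27, 0.08, 0.28 and -0.03 with GW4064. That probe differed by 0.26 ± 0.08 with an adjusted p of 0.054 over all probes, so it did not pass, although its groups did not overlap. Mmab, a cobalamin gene next to Mvk, differed by 0.19 ± 0.06 (adjusted p = 0.054).

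The 3 remaining mevalonate genes did not pass. Hmgcs1, the cytosolic synthase that follows Acat2 and whose window carries the element printed above, read 4.92, 5, 4.95 and 4.86 with DMSO and 4.96, 5, 5.1 and 5.1 with GW4064. The groups overlapped, the difference was 0.11 ± 0.05 (adjusted p = 0.16 in limma), and its 95% interval ran from -0.01 to 0.22. On slide 1 the difference was 0.02 and on slide 2 it was 0.20. Pmvk, the kinase between Mvk and Mvd, differed by 0.06 ± 0.05, with a 95% interval of -0.06 to 0.17, and its second probe by 0.05 ± 0.05. Idi1, the isomerase after Mvd, differed by 0.05 ± 0.06, with an interval of -0.08 to 0.18. The 3 genes that rose thus stood among steps that did not pass, whose upper bounds were all below the estimate for Mvk, the smallest of the 3 rises. The differences between genes were not tested.

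The isoprenoid and squalene steps held no gene past the threshold, which 20.8% of all genes passed. Fdps, farnesyl diphosphate synthase, read 4.41, 4.43, 4.48 and 4.37 with DMSO and 4.48, 4.49, 4.49 and 4.49 with GW4064. The GW4064 samples lay just above the DMSO samples, by less than the spread within DMSO, and the difference was 0.07 ± 0.04 (adjusted p = 0.23). Ggps1, which makes the longer diphosphate used for prenylation, differed by -0.05 ± 0.06, by 0.03 on slide 1 and -0.13 on slide 2, and its second probe by 0.01 ± 0.05. Fdft1, squalene synthase and the first step committed to sterols, differed by 0.10 ± 0.05, with an interval of -0.02 to 0.21. A second Fdft1 probe was too dim to keep. Sqle, squalene epoxidase and a rate-limiting step, read 3.78, 4.01, 3.83 and 3.8 with DMSO and 3.81, 3.78, 3.79 and 3.91 with GW4064. The groups overlapped throughout, and the difference was -0.03 ± 0.06 (interval -0.17 to 0.10). Lss, which closes the rings to lanosterol, differed by 0.12 ± 0.09, with 0.26 on slide 1 and -0.02 on slide 2.

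Of the 8 genes from lanosterol to cholesterol, 2 rose, 0 fell and 6 did not pass, with a median of 0.08. The shares over all genes were 11.8% higher and 8.95% lower. Dhcr7, the reductase that makes cholesterol from its direct precursor, read -0.81, -0.79, -0.89 and -0.95 with DMSO and -0.54, -0.58, -0.64 and -0.42 with GW4064. No samples overlapped, and Dhcr7 rose by 0.32 ± 0.06 (1.24-fold, adjusted p = 0.0066 in limma), by 0.24 on slide 1 and 0.39 on slide 2. Its neighbour Nadsyn1, an NAD synthetase, rose by 0.15 ± 0.04 (adjusted p = 0.022). Ebp, the sterol isomerase, read 3.81, 3.89, 3.86 and 3.82 with DMSO and 4.02, 3.96, 4.01 and 3.93 with GW4064, apart by 0.04 at the closest. Ebp rose by 0.13 ± 0.04 (1.10-fold, adjusted p = 0.038), by 0.14 on slide 1 and 0.13 on slide 2. This call was lost when any of DMSO replicates 1 to 4 or GW4064 replicates 1 to 3 was left out, with differences of 0.12 to 0.15 and adjusted p of up to 0.099.

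Hsd17b7, the reductase that ends the removal of the methyl groups, read -0.44, -0.12, -0.1 and -0.21 with DMSO and 0.05, 0.17, 0.01 and -0.09 with GW4064. The groups did not overlap by a margin of 0.01, but the spread was wide, and the difference of 0.25 ± 0.09 did not pass (adjusted p = 0.074). Its second probe differed by 0.14 ± 0.06. Nsdhl, the dehydrogenase of the same steps, differed by 0.12 ± 0.04 (adjusted p = 0.086), while its second probe differed by -0.05 ± 0.05. The demethylase Cyp51 differed by -0.01 ± 0.04, the methyl oxidase Msmo1 by 0.02 ± 0.06, the reductase Tm7sf2 by 0.03 ± 0.08 and the desaturase Sc5d by -0.06 ± 0.03. Their 95% intervals reached no further than -0.15 on the low side and 0.22 on the high side.

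**Figure D3:**
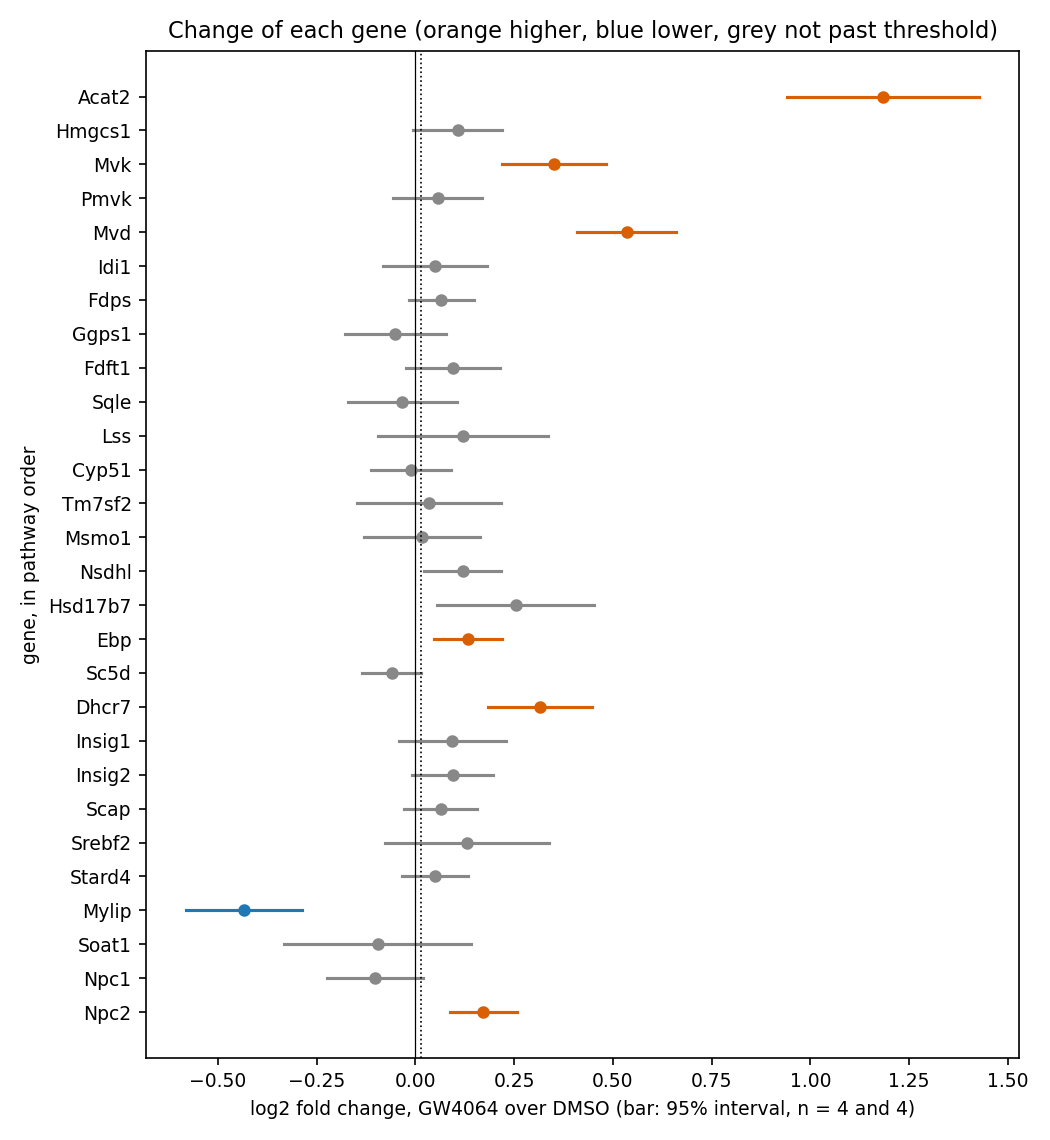
Log2 fold change of the 28 genes (GW4064 over DMSO) with 95% intervals from limma, in pathway order; orange genes rose, the blue gene fell and grey genes did not pass an adjusted p of 0.05, and the dotted line is the median of all genes at 0.01. Acat2 at 1.18, Mvd at 0.53 and Mylip at -0.43 stand farthest from 0, and every grey interval lies between -0.33 and 0.45.

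None of the 4 genes that control SREBP2 passed, where 20.8% of all genes did. All 4 differed in the positive direction with a median of 0.09, and 7847 of all 14487 genes were positive. Srebf2, which encodes SREBP2 and is itself a target of it, read -0.39, -0.42, -0.65 and -0.3 with DMSO and -0.12, -0.41, -0.41 and -0.3 with GW4064. The groups overlapped, the difference was 0.13 ± 0.09 and its interval ran from -0.08 to 0.34. Its second probe differed by 0.03 ± 0.11. Insig1, a strong SREBP target that retains SCAP, differed by 0.09 ± 0.06 (interval -0.04 to 0.23). Insig2, its paralog with the same role, differed by 0.09 ± 0.04 on one probe and -0.01 ± 0.12 on the other. Scap differed by 0.06 ± 0.04, with 0.13 on slide 1 and less than 0.01 on slide 2. A missed threshold does not show that these genes were the same in both groups, and the intervals give the sizes left possible.

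Of the 5 genes of sterol movement and storage, Mylip fell, Npc2 rose and the others did not pass. The shares over all genes were 11.8% higher and 8.95% lower. Mylip encodes IDOL, a ubiquitin ligase that marks lipoprotein receptors for breakdown and is a known target of the oxysterol receptor LXR. It read 0.24, 0.15, 0.19 and 0.25 with DMSO and -0.18, -0.1, -0.23 and -0.4 with GW4064. All GW4064 samples were below all DMSO samples, and Mylip fell by 0.43 ± 0.06 (1.35-fold lower, adjusted p = 0.0024 in limma). The difference was -0.33 on slide 1 and -0.53 on slide 2. A second probe read -3.66, -3.54, -3.63 and -3.8 against -4.11, -3.64, -4.37 and -4.13. It overlapped at GW4064 replicate 2, and its difference of -0.41 ± 0.14 was of the same size but did not pass over all probes (adjusted p = 0.095).

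Npc2, the soluble lysosomal protein that passes cholesterol to Npc1, read 3.44, 3.48, 3.47 and 3.5 with DMSO and 3.7, 3.62, 3.59 and 3.67 with GW4064. The groups did not overlap, and Npc2 rose by 0.17 ± 0.04 (1.13-fold, adjusted p = 0.014), by 0.20 on slide 1 and 0.15 on slide 2. With median centring in place of the 75th percentile it did not pass (0.16, adjusted p = 0.086). Its membrane partner Npc1 read -1.5, -1.42, -1.33 and -1.28 against -1.43, -1.47, -1.51 and -1.52, with overlap, and differed by -0.10 ± 0.05 (adjusted p = 0.22). That difference was 0.01 on slide 1 and -0.21 on slide 2. Soat1, the acyltransferase that stores cholesterol as esters, was dim and differed by -0.10 ± 0.10. Stard4, a cytosolic sterol carrier, differed by 0.05 ± 0.04, and its second probe by 0.01 ± 0.06.

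Over the 21 genes that did not pass, differences ran from -0.10 to 0.25. All 21 intervals lay within 0.5 of 0 and 17 within 0.25, with the outermost bounds at -0.33 for Soat1 and 0.45 for Hsd17b7. The spread between samples of a group was small, with SDs of 0.006 to 0.2 and a median of 0.069. The deviations were not shared evenly among arrays. DMSO replicate 1 was the lowest DMSO sample for 14 of 28 genes and replicate 2 the highest for 12. GW4064 replicate 1 was the highest GW4064 sample for 13, and GW4064 replicate 4 the lowest for 11.

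Of the 28 genes, 17 had 1 probe and 11 had 2. In 10 genes both probes were bright enough to keep, and the 2 probes gave the same sign in 7. They differed in sign for Ggps1, Nsdhl and Insig2, none of which passed. Over all probes taken singly, 8.43% were higher and 7.01% lower at an adjusted p of 0.05, and the probe counts of cholesterol genes were 5 higher and 1 lower.

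**Figure D4:**
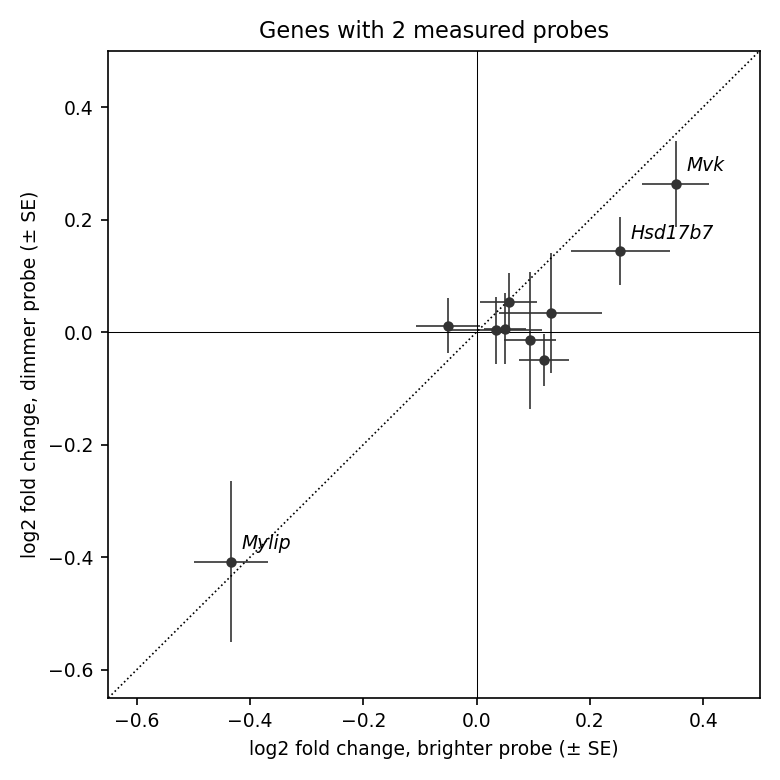
Log2 fold change of the dimmer probe against that of the brighter probe for the 10 genes with 2 measured probes (error bars are standard errors, n = 4 per group; the dotted line marks equality). The probes of Mvk, Hsd17b7 and Mylip lie near the line and away from 0, and the other 7 genes cluster around 0.

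The neighbouring lists give transcript levels of genes related to sterol metabolism outside the 28. They were written from general knowledge, with earlier results of these data known. They are described by counts and medians only, against 11.8% higher and 8.95% lower among all genes. Of 8 genes of acetyl-CoA supply and ketone body metabolism, 1 rose and 3 fell (median -0.01). The cytosolic acetyl-CoA synthetase Acss2 rose by 0.33 ± 0.07. ATP citrate lyase Acly, which makes most cytosolic acetyl-CoA from citrate, fell by 0.30 ± 0.04, from 4.76 to 4.86 with DMSO to 4.48 to 4.56 with GW4064. The ketone body dehydrogenase Bdh1 fell by 0.43 ± 0.07, and the mitochondrial synthetase Acss1 fell by 0.28 ± 0.07. The enzymes that feed acetyl-CoA to Acat2 thus moved in different directions.

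Of 12 genes of SREBP processing and sterol sensing, 3 rose and 1 fell (median 0.07). Tmem97, a sterol-responsive protein that binds Npc1, read 0.76, 0.96, 0.86 and 0.82 with DMSO and 1.33, 1.25, 1.14 and 1.25 with GW4064 and rose by 0.39 ± 0.06 (adjusted p = 0.0023 in limma). Ube2g2, a ubiquitin-conjugating enzyme of sterol-regulated breakdown, rose by 0.19 ± 0.04. The ligase Rnf145, a sensor of membrane sterols and a known LXR target, fell by 0.34 ± 0.05 (adjusted p = 0.0022). Of 15 genes of the isoprenoid branch 2 rose and 0 fell (median 0.05), the prenyltransferase subunit Rabggta by 0.22 ± 0.05 and the dolichyl phosphatase Dolpp1 by 0.22 ± 0.05. Of 7 genes that serve the last steps, 3 rose and 0 fell (median 0.16): the scaffold Erg28 by 0.16 ± 0.04, the sterol reductase Lbr by 0.20 ± 0.05 and cytochrome b5 (Cyb5a) by 0.16 ± 0.04.

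Of 17 genes of sterol transport and ester turnover, 3 rose and 3 fell (median 0.04). Soat2, the second cholesterol acyltransferase, which esterifies sterol for lipoproteins in liver and gut, was dim but well above background on all 8 arrays. It read -4.5, -4.59, -4.72 and -4.62 with DMSO and -3.34, -2.96, -3.44 and -3.66 with GW4064, with no overlap. Soat2 rose by 1.26 ± 0.13 (2.39-fold, adjusted p = 0.00042 in limma), whereas the interval of Soat1 ran from -0.33 to 0.14. The high-density lipoprotein receptor Scarb1 rose by 0.41 ± 0.05 and the receptor chaperone Lrpap1 by 0.46 ± 0.06. The sterol transporter Gramd1b fell by 0.34 ± 0.05, the lipoprotein receptor Vldlr by 0.39 ± 0.07 and the lysosomal gene Lamp2 by 0.19 ± 0.04.

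Of 10 oxysterol and LXR genes, 3 rose and 0 fell (median 0.03). Nr1h3, which encodes LXR-alpha, rose by 0.39 ± 0.04 and the cholesterol exporter Abca1, a known LXR target like Mylip, rose by 0.38 ± 0.06. Abca1 read 1.07, 1.09, 1.11 and 1.2 with DMSO and 1.54, 1.57, 1.54 and 1.36 with GW4064. The bile acid enzyme Hsd3b7 rose by 0.15 ± 0.03, and the exporter Abcg1, another LXR target, differed by less than 0.01. Of the genes named here as LXR targets, Mylip and Rnf145 fell, Abca1 rose and Abcg1 did not pass. A cause was not tested. Of 13 genes of SREBP1 and fatty acid synthesis, 3 rose and 2 fell, with a median under 0.01. Fatty acid synthase Fasn rose by 0.40 ± 0.06 and the desaturase Fads2 by 0.22 ± 0.06. Mid1ip1, which activates acetyl-CoA carboxylase, fell by 0.28 ± 0.05 and the desaturase Scd2 by 0.13 ± 0.04, and Srebf1 itself differed by 0.11 ± 0.07.

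**Figure D5:**
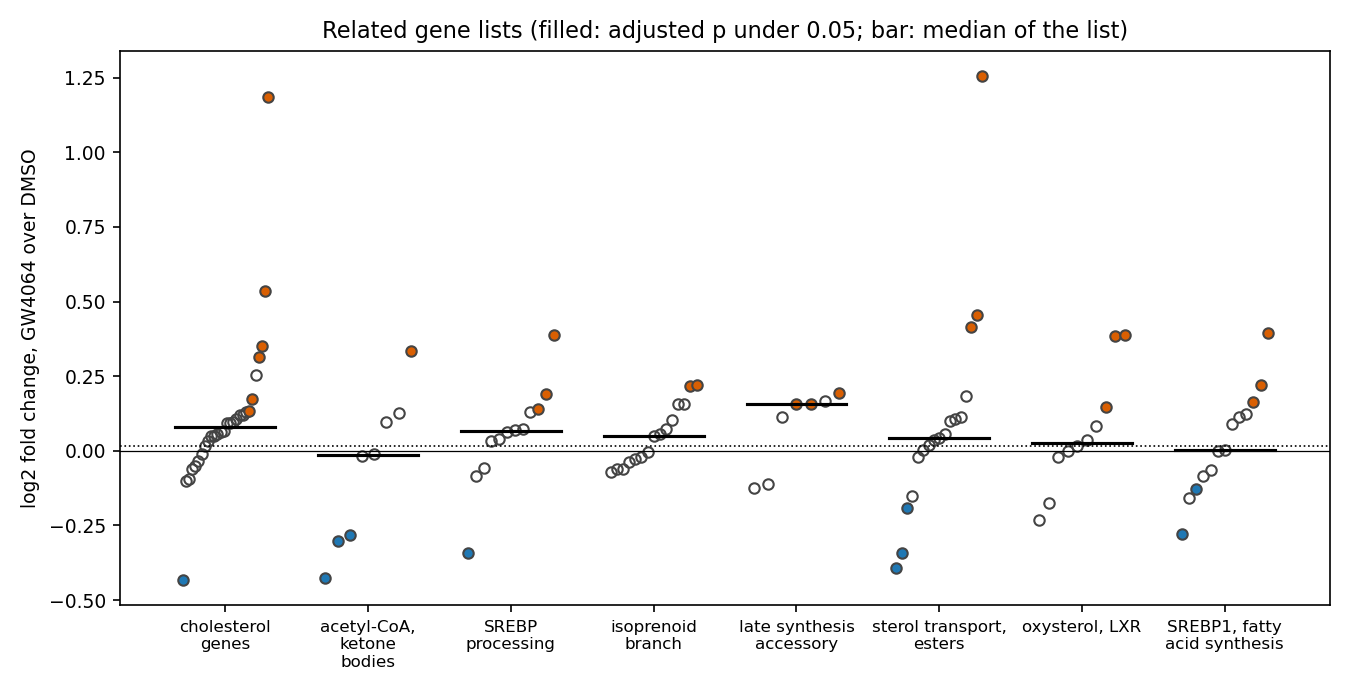
Log2 fold change (GW4064 over DMSO, n = 4 per group) of each tested gene in the cholesterol list and in 7 related lists; filled points passed an adjusted p of 0.05 in limma (orange higher, blue lower), thick bars are list medians and the dotted line is the median of all genes at 0.01. The list medians lie between -0.01 and 0.16, and Acat2 and Soat2 stand alone above 1.

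Genes that lie within 5 kb of a cholesterol gene in the annotation were read as a check of position. Of 21 such neighbours tested, 4 were higher and 1 lower, against 11.8% higher and 8.95% lower among all genes. Of the 6 neighbours of called genes, 2 were higher, Acat3 beside Acat2 and Nadsyn1 beside Dhcr7, and 0 were lower. Cyba beside Mvd differed by 0.15 ± 0.05 (adjusted p = 0.088), Porcn beside Ebp by 0.02 ± 0.04 and Isca2 beside Npc2 by 0.10 ± 0.04. Fdft1 and Ctsb overlap in that annotation, and Ctsb differed by -0.01 ± 0.05.

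With slide as a block, 5 cholesterol genes were higher and 1 lower, Ebp being the call lost. On slide 1 alone 2 were higher and 0 lower, and on slide 2 alone 1 was higher and 0 lower, with 2 samples per group in each. The 7 called genes kept their direction on both slides. This is not separate support, because they were called from these same arrays and both slides had the same order of groups.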

How the data were processed

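RNA from 8 samples was hybridised to one-colour Agilent arrays. The deposited spot values are intensity, already background-subtracted by the scanner software, and per the file headers this was Feature Extraction 10.7.3.1. Agilent Feature Extraction 10.7 and limma are listed in the submitters' processing notes. The background and outlier marks used were deposited as 0 or 1 flags, per the file headers. The median spot and local background signals, used in alternatives only, were intensities. The deposited table of log2 values, whose centring and scale the authors do not state, served as an alternative only.

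Controls (1377 of 44397 spots) and outlier spots were left out, spots of a probe averaged as log2, and each array's 75th percentile subtracted. Probes well above background on at least 4 arrays were kept, except 85 wholly marked on some array. Accessions were matched to GRCm38.p6 for names only (69.1% of 39429 probes), because the headers name mm9, and the brightest probe stood for a gene. Groups were compared with limma 3.58.1 (R 4.3.3; lmFit, eBayes, Benjamini-Hochberg over all genes, 0.05), which was checked on simulated data. The number of arrays limits the precision. Members and lists were chosen with earlier results of these data known. All 28 members are named; other lists give at most the 4 called genes of smallest p, every tested gene near Acat2 and of the FXR check, and the brightest marker. The values of 2 genes that this takes are not shown. Outside this rule, genes within 5 kb, Acat1, Abcg1, Srebf1, Vldlr, Lamp2 and markers on no array were named after their values were seen.

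Alternatives covered normalization, background, filter, probe choice, replicate and slide blocks, weights, the deposited log2 table and dropping each array in turn.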

Additional observations from a re-analysis of the deposited data

Results flagged for a closer look

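Among the 56 sets of 4 samples formed by the 28 cholesterol genes, 1 held a sample far from the others (1.79%), where chance gives about 1 in 20. It was Acat2 in DMSO replicate 4, at -0.57 on the log2 scale, against -0.2 to -0.13 in the other DMSO samples. The gap to the nearest sample was 0.854 of the whole range of the set. Acat2 was higher with GW4064 by 1.09 without that sample and by 1.18 with it.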

How the results depend on the processing

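The 7 called genes kept their direction under every alternative run, and Acat2 alone also kept its call under all of them (adjusted p up to 0.048 in limma). Ebp lost its call in 17 of 23 settings, Mvk, Dhcr7 and Mylip with normexp and on each slide alone, and Mvd on slide 2 alone. Normexp on median spot signals, used because the files hold no mean signals, left 120 genes called over the whole array, with 2 cholesterol genes higher and 0 lower. On DMSO replicate 3, where 6 spots had a very bright local background, it moved dim probes by 2.14 on the log2 scale. With these backgrounds replaced, an alternative chosen after seeing the data, the counts were 2246, 6 and 1, with Npc2 lost and Hsd17b7 gained among the 6. Slide 1 alone gave 966 genes, 2 cholesterol genes higher and 0 lower, and slide 2 alone gave 220, 1 and 0, from 2 samples per group. Leaving out each array gave 2078 to 2825 genes, 5 to 6 higher and 1 lower. The other settings gave 2167 to 3680 genes, or 3817 probes where probes took the place of genes, with 4 to 8 cholesterol genes higher and 1 lower. Deviations of same-numbered samples from their group means correlated at -0.131, -0.0291, 0.191 and -0.0219. Only DMSO replicate 3 was closest to the GW4064 sample of its own number. With 4 samples per group this cannot decide whether shared replicate numbers mark pairs. The replicate block gave 2324 genes, 4 higher and 1 lower, losing Ebp (adjusted p = 0.093) and Npc2 (0.052). Npc2 was also lost with median centring (0.086), with normexp (0.67), with bright backgrounds replaced (0.0505), on slide 1 alone (0.14) and on slide 2 alone (0.38). Nsdhl passed without GW4064 replicate 3 (0.15, adjusted p = 0.037), and with array weights both Nsdhl and Hsd17b7 passed. Hsd17b7 also passed with a trended robust fit (0.040) and with bright backgrounds replaced (0.045).

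Signs turned only for genes that did not pass, and the cause was not tested. With normexp, Sqle was at 0.0987, Sc5d at 0.0038 and Insig1 at -0.149, and with bright backgrounds replaced Pmvk was at -0.0196, Idi1 at -0.0201, Msmo1 at -0.0725 and Soat1 at 0.00083. With quantile normalization Msmo1 was at -0.0120. On slide 1 alone Ggps1 was at 0.0327 and Npc1 at 0.0077. On slide 2 alone Sqle was at 0.0356, Lss at -0.0177, Cyp51 at 0.0033, Tm7sf2 at -0.0713 and Soat1 at 0.0060. Leaving out 1 array gave -0.0631 to 0.0191 for Sqle, -0.0399 to 0.0106 for Cyp51, -0.0115 to 0.104 for Tm7sf2 and -0.0243 to 0.0591 for Msmo1.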
